A study of Macaca mulatta with 25 samples.

Results

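The 8 basement membrane genes followed across rhesus macaque blastocysts were the laminin chains LAMB1 and LAMC1, the collagen IV chains COL4A1 and COL4A2, the nidogens NID1 and NID2, the fibronectin gene FN1 and the perlecan gene HSPG2. They were found by gene symbol in a table of 35395 genes, and 8 of the 10 genes listed were matched. All 8 were among the 13934 genes that reached at least 1 count per 1000000 (CPM) in at least 5 libraries. LAMA1 and LAMA5, which encode laminin alpha chains, had no identifier in the symbol table used and were not analysed here.

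A basement membrane is a thin sheet of extracellular matrix under an epithelium. It is built on a laminin network (an alpha, a beta and a gamma chain joined in each molecule) and a collagen IV network, which nidogens and perlecan tie together, while fibronectin is a matrix glycoprotein that cells bind through integrins. In the mammalian blastocyst the primitive endoderm (hypoblast) is known as a rich source of such proteins, and laminin is laid down between it and the epiblast.

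The study asked how long-term exposure of the mother to raised androgen, an obesogenic diet or both bears on her preimplantation embryos. Female rhesus macaques entered 1 of 4 groups of 10 at about 2.5 years of age, before puberty. Group C ate standard chow (15% fat, 59% carbohydrate, 26% protein) and carried cholesterol implants, and group T ate the same chow with testosterone implants that held blood testosterone up to 3 to 5 times normal. Group WSD ate a Western-style diet (36% fat, 46% carbohydrate, 18% protein), and group TWSD had both the diet and the testosterone implants. After 5 to 6 years ovarian stimulation was carried out in 10 C, 7 T, 6 WSD and 3 TWSD females, the others being kept from it mainly by endometriosis. Oocytes were fertilised in vitro with semen from 4 fertile males, cultured for up to 8 days, and blastocysts were sequenced after removal of the zona pellucida. There were 5 C, 10 T, 8 WSD and 2 TWSD libraries. The labels do not give the mother or father of a library, nor how many blastocysts it holds. There were more T and WSD libraries than stimulated T and WSD females, so libraries may share a mother, and some may share a father. The tests treat every library as independent, and their p-values would be too small if libraries share parents. The p-values here reflect only how much the libraries vary, which may in part be technical. The embryos themselves received neither implant nor diet, and they come only from females still fit for stimulation.

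Library totals ran from 14219054 to 35544542 counts, and no pair of the 25 libraries agreed within sampling noise. Several libraries stood apart from the rest. The syncytiotrophoblast marker sum (10 matched genes, CGA among them) was 4156 to 11862 CPM in C 8, C 11 and C 12 and 4247 CPM in T 1, against 57.6 to 569.8 CPM in the other libraries. C 11 also carried stromal collagen, with 8644 CPM of COL3A1 where no other library passed 8.53 CPM. Of the defining blastocyst genes, the epiblast gene POU5F1 was at 0.627 CPM in C 12 and 8.51 CPM in C 11, against 206 to 1068 CPM elsewhere, and the trophectoderm gene CDX2 was at 1.57 CPM in C 12, against 29.4 to 285 CPM elsewhere. So 3 of the 5 control libraries are among those that stand apart, and the members' differences from group C given in the text, along with the list genes called, are followed by values or counts without C 8, C 11 and C 12, in which group C rests on C 1 and C 2. Of all 25 libraries, C 1 had the lowest primitive endoderm and trophectoderm marker sums, at 875 and 2721 CPM.

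Both laminin chains were present in every library and varied less than most genes. LAMB1, the laminin beta-1 chain, was at 126, 288, 312, 397 and 93.6 CPM in C 1, C 2, C 8, C 11 and C 12. In the T libraries LAMB1 ran from 266 to 610.1 CPM with a median of 363, and in the WSD libraries from 303 to 898 CPM with a median of 475. The TWSD libraries held 475 and 563 CPM of LAMB1. LAMB1 in C 1 and C 12 lay below every other library, while 7 of the 8 WSD libraries lay above the highest control.

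LAMC1, the laminin gamma-1 chain that most laminin molecules share, was at 265, 269, 278, 258 and 41.9 CPM in C 1, C 2, C 8, C 11 and C 12. The other 4 controls sat within a narrow band, far above C 12. In the T libraries LAMC1 ran from 214 to 596 CPM (median 353), and in the WSD libraries from 409 to 715 CPM (median 505). TWSD 2 and TWSD 3 held 188 and 497 CPM of LAMC1. All 8 WSD libraries lay above all 5 controls, a separation in that direction shown by 0.459% of the 13934 genes, and 8 of the 10 T libraries also lay above the highest control. How many genes show partial separations like this last one, or like that of LAMB1, was not counted.

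**Figure D1:**
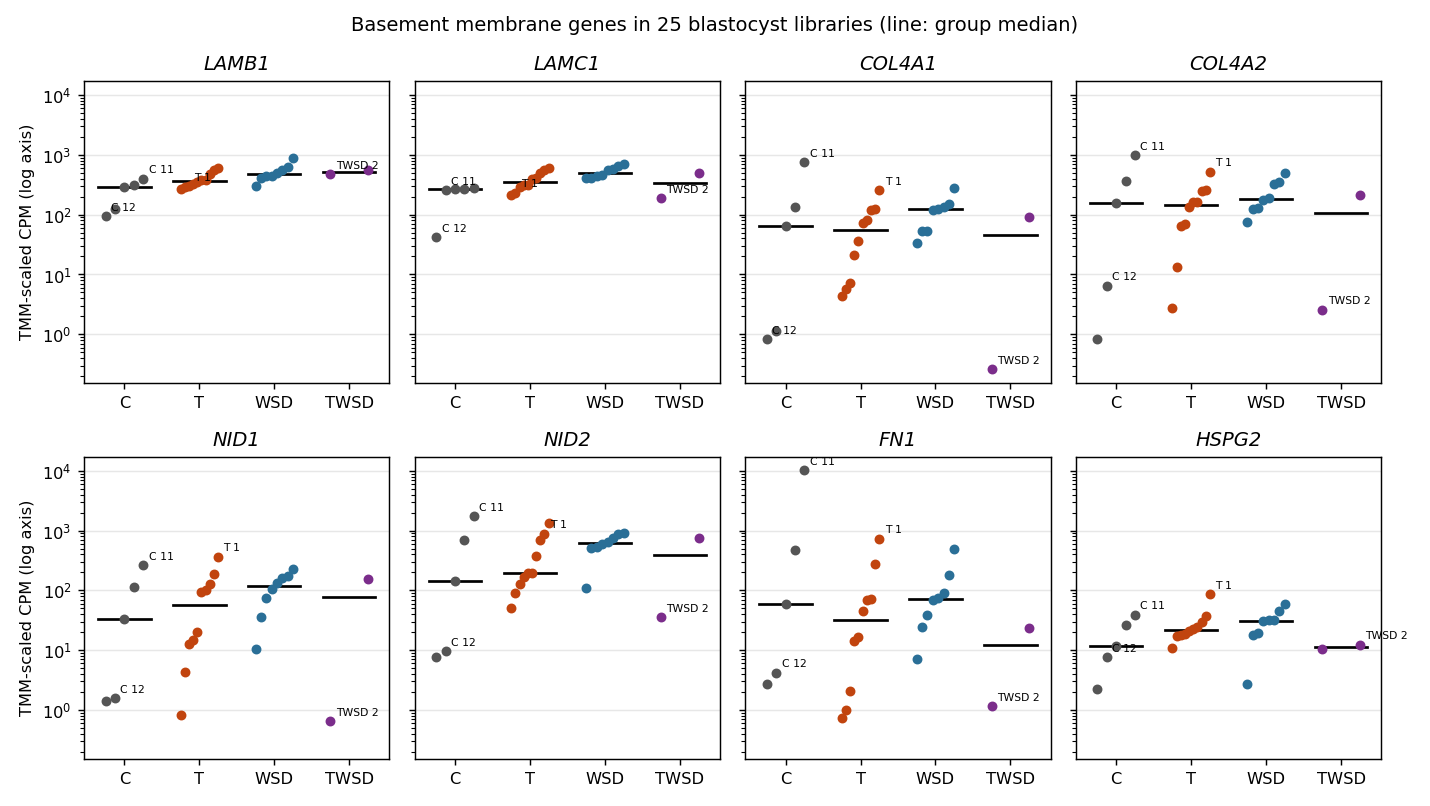
Level of each gene in each of the 25 libraries (points, log axis of CPM on TMM-scaled library sizes) by maternal group, with the group median as a line. LAMB1 and LAMC1 stay within a far narrower range than COL4A1, COL4A2, NID1, NID2 and FN1, with C 11 highest for 4 of these 5 genes (749.5 CPM for COL4A1, 10134 CPM for FN1).

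Against the controls, WSD blastocysts had more of both laminin transcripts, and these were the only members that edgeR called in any of the 7 comparisons. LAMB1 was 2.15-fold higher in WSD than in C (log2 change 1.10 ± 0.31 SE, adjusted p = 0.0436, edgeR quasi-likelihood test with Benjamini-Hochberg adjustment over all 13934 genes). LAMC1 was 2.37-fold higher (log2 change 1.24 ± 0.35 SE, adjusted p = 0.0425, same test). Thus 2 of 8 members were called, both higher, where 4.07% of all genes were called (65 higher and 502 lower) and the median log2 change of all genes was -0.12. The median over the 8 members was 0.36, with 5 above 0 and 3 below. In whole-embryo RNA, more cells of a type and more RNA per cell cannot be told apart.

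The size of the laminin difference held better than its p-value. Without C 8, C 11 and C 12, which leaves 2 controls, the log2 change was 1.37 for LAMB1 (adjusted p = 0.42) and 1.01 for LAMC1 (adjusted p = 0.66), in a fit that called 1 of 13472 genes. Those 2 controls held unlike LAMB1 levels, 126 CPM in C 1 and 288 CPM in C 2, so its size there leaned on C 1. Without C 12 alone the log2 change was 0.89 for LAMB1 (adjusted p = 0.172) and 0.97 for LAMC1 (adjusted p = 0.11), all by edgeR's test. When each of the 25 libraries was left out in turn, LAMC1 kept its direction and ranged from 0.97 to 1.34, and its call was lost without C 11, C 12 or any 1 of the 8 WSD libraries. LAMB1 ranged from 0.89 to 1.35, and its call was lost in 14 of the 25 fits: without C 1 or C 12, without any 1 WSD library other than WSD 9, and without T 4, T 5, T 7, T 8 or T 11. Markers that moved with this contrast are given further down, and their part in the laminin difference was not tested.

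The other groups gave the following values for the laminins. In T against C, LAMB1 changed by 0.69 ± 0.30 (log2, SE; 95% interval 0.11 to 1.27; adjusted p = 0.202) and LAMC1 by 0.78 ± 0.33 (0.13 to 1.43; adjusted p = 0.199), by edgeR's test. In TWSD against C, LAMB1 changed by 1.09 ± 0.42 (adjusted p = 0.144) and LAMC1 by 0.62 ± 0.48 (adjusted p = 0.445, edgeR). Without C 8, C 11 and C 12 LAMB1 stood at 0.96 in T and 1.35 in TWSD, and LAMC1 at 0.55 and 0.39 (log2, adjusted p = 0.935, 0.147, 0.998 and 0.726, edgeR). LAMC1 in TWSD against C was -0.24 with TWSD 3 left out and 1.18 with TWSD 2 left out. These comparisons share the control libraries with WSD against C, so they are not separate evidence. In WSD against T, which shares no controls, the log2 difference was 0.41 ± 0.25 for LAMB1 (95% interval -0.08 to 0.90) and 0.47 ± 0.28 for LAMC1 (-0.08 to 1.01), both with an adjusted p of 0.9997 by edgeR. Neither laminin was thus shown to differ between the diet and the implant.

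No member was called in the remaining comparisons by edgeR's test. In T against C, 0 of 8 were called (3 at an unadjusted p under 0.05, 1 by DESeq2). Of all 13934 genes, edgeR called 4.11%, 2544 passed unadjusted and DESeq2 called 7.91%. In TWSD against C, 0 of 8 were called (2 unadjusted, 1 by DESeq2). There edgeR called 1.2% of all genes, 3062 of the 13934 passed unadjusted and DESeq2 called 14.3%. In WSD against T, 0 of 8 were called (0 unadjusted, 0 by DESeq2), against 0.0% of all genes. The share of all genes called was 0.0502% for TWSD against T and 0.0502% for TWSD against WSD, and 0 of 8 members were called in each (0 unadjusted, 0 by DESeq2). The interaction of implant and diet asks whether the diet's effect differs with testosterone. For it 0.0718% of all genes and 0 of 8 members were called (0 members by DESeq2). At an unadjusted p under 0.05 there were 1889 of the 13934 genes and 1 member. That member was LAMC1, at -1.40 ± 0.60 on the log2 scale (adjusted p = 0.298, edgeR), and it differed between the 2 TWSD libraries, at -2.26 without TWSD 3 (adjusted p = 0.0461) and -0.86 without TWSD 2 (adjusted p = 0.95). In each of these fits the TWSD arm rests on 1 library, which is assumed to vary like the other groups. By limma voom, no gene of the 13934 was called in any comparison.

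**Figure D2:**
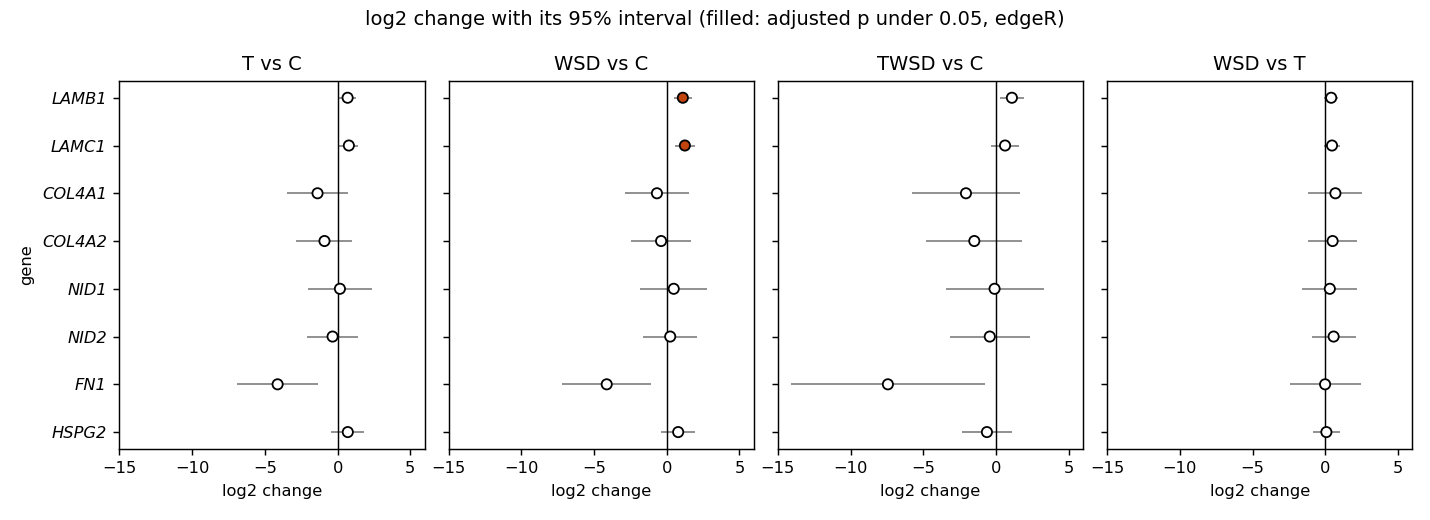
log2 change of each gene in 4 of the comparisons (point), with its 95% interval as a line, from edgeR's fit to all 25 libraries. Filled points, which are LAMB1 and LAMC1 in WSD against C, have an adjusted p under 0.05, and the intervals of the collagen IV, nidogen and fibronectin genes are several times wider than those of the laminins.

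The collagen IV chains behaved unlike the laminins, with levels that differed by orders of magnitude between libraries of 1 group. COL4A1, the collagen IV alpha-1 chain, was at 1.12, 64.4, 133, 749.5 and 0.836 CPM in C 1, C 2, C 8, C 11 and C 12. It ran from 4.32 to 255 CPM in the T libraries (median 55.0) and from 33.6 to 280.1 CPM in the WSD libraries (median 122). TWSD 2 held 0.258 CPM, from 4 counts, and TWSD 3 held 90.4 CPM. COL4A1 was under 10 CPM in 6 libraries, namely C 1, C 12, T 3, T 4, T 6 and TWSD 2, and in none of the 8 WSD libraries.

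COL4A2, the partner chain that joins COL4A1 in the same triple helix, was at 0.822, 159, 369.7, 990.5 and 6.53 CPM in C 1, C 2, C 8, C 11 and C 12. It ran from 2.75 to 523 CPM in the T libraries (median 148) and from 75.2 to 498 CPM in the WSD libraries (median 183). TWSD 2 and TWSD 3 held 2.58 and 215 CPM of COL4A2. The libraries low in COL4A2 (C 1, C 12, T 6 and TWSD 2, all under 10 CPM) were also low in COL4A1.

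Neither chain passed a test between groups, and the intervals were wide. In WSD against C the log2 change was -0.68 ± 1.13 for COL4A1 (95% interval -2.88 to 1.53, adjusted p = 0.827, edgeR) and -0.39 ± 1.04 for COL4A2 (-2.43 to 1.65, adjusted p = 0.904, edgeR). With C 8, C 11 and C 12 left out, COL4A1 stood at 1.90 and COL4A2 at 1.58, the opposite sign. In T against C it was -1.38 ± 1.06 for COL4A1 (adjusted p = 0.55, edgeR) and -0.90 ± 0.98 for COL4A2 (adjusted p = 0.704, edgeR), and without those 3 libraries 1.19 and 1.07, again of opposite sign (adjusted p = 0.998 for both). Leaving out C 11 alone was enough to turn both signs in both comparisons, to 1.25 and 0.79 in WSD and 0.55 and 0.28 in T. Differences of several-fold in either direction were therefore not resolved for collagen IV with these libraries.

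The nidogens, which link laminin to collagen IV, followed the collagen pattern. NID1 was at 1.41, 115, 33.6, 264 and 1.57 CPM in C 1, C 2, C 8, C 11 and C 12. It ran from 0.81 to 364 CPM in the T libraries (median 57.1) and from 10.4 to 232 CPM in the WSD libraries (median 119.6), and TWSD 2 and TWSD 3 held 0.644 and 155 CPM. NID1 was under 10 CPM in C 1, C 12, T 3, T 4 and TWSD 2.

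NID2 was at 7.75, 700.0, 142, 1759 and 9.56 CPM in C 1, C 2, C 8, C 11 and C 12. It ran from 51.1 to 1332 CPM in the T libraries (median 196) and from 111 to 912 CPM in the WSD libraries (median 618), and TWSD 2 and TWSD 3 held 35.9 and 743 CPM. In 7 WSD libraries it lay between 517 and 912 CPM and in WSD 8 far below. The NID2 log2 difference between WSD and T was 0.58 ± 0.77 (95% interval -0.94 to 2.10, adjusted p = 0.9997, edgeR), so the gap between the medians was within the spread of the libraries. In WSD against C, NID1 changed by 0.48 ± 1.18 and NID2 by 0.24 ± 0.94 (adjusted p = 0.894 and 0.941, edgeR). These values leaned on single controls. Without C 11 NID1 stood at 1.61 and NID2 at 1.52, and without C 8, C 11 and C 12 at 1.03 and 0.83 (adjusted p = 0.965 and 0.963). NID1 was 0.18, 0.27 and 0.16 without C 1, C 8 or C 12, and NID2 was just below 0 in the same 3 fits, at -0.09 in the lowest.

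FN1, fibronectin, was the most variable member and the one most tied to a single library. It was at 2.76, 60.3, 474, 10134 and 4.23 CPM in C 1, C 2, C 8, C 11 and C 12. It ran from 0.723 to 728 CPM in the T libraries (median 31.4) and from 7.01 to 487 CPM in the WSD libraries (median 71.4). TWSD 2 and TWSD 3 held 1.16 and 23.4 CPM of FN1. C 11 therefore held 13.9 times the FN1 level of T 1, the next highest library, and the highest and lowest libraries differed 14024-fold.

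The FN1 contrasts of T and WSD with group C turned on C 11. In T against C the FN1 log2 change was -4.12 ± 1.43 (adjusted p = 0.104, edgeR) and in WSD against C -4.13 ± 1.56 (adjusted p = 0.138, edgeR). DESeq2 called both, with adjusted p = 0.0339 and 0.0382, and also FN1 in TWSD against C (adjusted p = 0.00642). Without C 11, edgeR gave FN1 log2 changes of -0.15 in T (adjusted p = 0.986) and -0.16 in WSD (adjusted p = 0.983). Without C 8, C 11 and C 12, FN1 had the opposite sign, at 1.99 in T and 2.00 in WSD. In TWSD against C, where edgeR gave -7.43 ± 3.39, FN1 stayed below 0, at -3.46 without C 11 (adjusted p = 0.431) and -1.32 without C 8, C 11 and C 12 (adjusted p = 0.842). In T against C, FN1 was called without C 1 (adjusted p = 0.0477) and without T 1 (adjusted p = 0.0291), by edgeR. C 11 was also the library with 13138 CPM summed over 9 stromal marker genes, against at most 399 CPM in any other library.

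HSPG2, perlecan, is a large heparan sulfate proteoglycan of basement membranes. It was at 2.23, 11.7, 26.8, 39.2 and 7.57 CPM in C 1, C 2, C 8, C 11 and C 12. It ran from 10.8 to 85.7 CPM in the T libraries (median 21.5) and from 2.76 to 60.2 CPM in the WSD libraries (median 31.3), and the TWSD libraries held 12.3 and 10.4 CPM. HSPG2 was lowest in C 1, WSD 6 and C 12 and highest in T 1. Its log2 change in WSD against C was 0.78 ± 0.60 (adjusted p = 0.548, edgeR). It was 1.31 without C 11 (adjusted p = 0.322) and 2.15 without C 8, C 11 and C 12 (adjusted p = 0.692), and ranged from 0.51 to 1.31 with each library left out. Its interaction term was -2.11 ± 1.07 (adjusted p = 0.394, edgeR).

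The spread over the 25 libraries divided the members. The SD of log2 CPM was 0.69 for LAMB1 and 0.83 for LAMC1, and 1.20 for HSPG2, against a median of 1.22 over all genes. It was 2.77 for COL4A1, 2.61 for COL4A2, 2.75 for NID1, 2.09 for NID2 and 3.30 for FN1. Only 53 of the 13934 genes varied more than FN1, and COL4A1, COL4A2 and NID1 varied more than 98.2%, 97.1% and 98.0% of genes. Within groups, the SD of COL4A1 was 4.28 in C, 2.08 in T and 1.01 in WSD, where the median gene had 1.35, 0.73 and 0.70. FN1 had 4.91, 3.31 and 1.84 in the same order. Whether these spreads differ between groups was not tested.

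**Figure D3:**
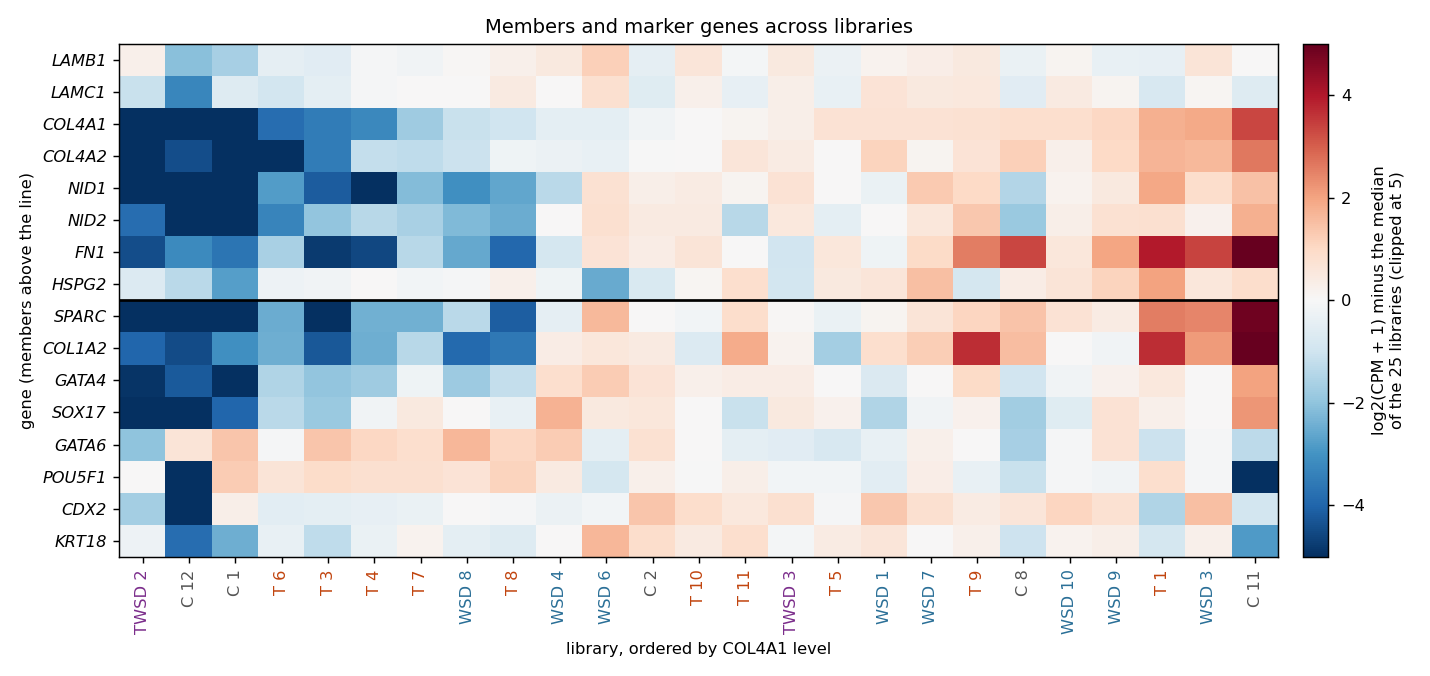
Level of the 8 genes and of 8 marker genes in each library, as log2(CPM + 1) minus the gene's median over the 25 libraries, with libraries ordered from low to high COL4A1. COL4A2, NID1, NID2, FN1, SPARC and GATA4 tend from low to high along the same order, with TWSD 2, C 12 and C 1 among the 6 lowest libraries for COL4A2, NID1, NID2 and FN1. The laminin rows are paler, and lie farthest from their medians in C 12.

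Across the 25 libraries the collagen IV chains, nidogens and fibronectin varied together. Correlations here are Spearman's rho of log2 CPM, given as descriptions: the points share library depth, and the libraries span all 4 groups. COL4A1 and COL4A2 had a rho of 0.958, and each of the nidogens was the other's closest gene at 0.922. COL4A2 was the gene most like COL4A1 among all those tested. FN1 ranked 3 for COL4A1, at 0.895, and 6 for NID1, at 0.878. COL4A1 had a rho of 0.845 with NID1 and 0.769 with NID2. The median rho of COL4A1 with all other genes was 0.04, and 1.42% of genes passed 0.7. Without C 8, C 11, C 12 and T 1, the rho of COL4A1 with COL4A2 was 0.945, with NID1 0.839 and with FN1 0.857. Within the 10 T libraries alone they were 0.952, 0.891 and 0.867, and within the 8 WSD libraries 0.833, 0.667 and 0.881.

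Over all 25 libraries each laminin was nearer to the other than to any other member. LAMB1 and LAMC1 had a rho of 0.706 over the 25 libraries, 0.867 in the T libraries and 0.238 in the WSD libraries. Their log2 ratio stayed within 1 of its median in 22 of 25 libraries, with an SD of 0.52, and was lowest in C 1 and highest in TWSD 2. For COL4A1 over COL4A2 the SD of the log2 ratio was 0.95, and for NID1 over NID2 it was 1.46, with T 4 lying 5.31 below the median. LAMB1 had a rho of 0.287 with COL4A1 and LAMC1 0.358. Without the 4 libraries that stand apart these were 0.386 and 0.644, so the distance of LAMC1 from the collagen genes depended partly on those libraries. LAMC1 was then as near the nidogens (0.686 with NID2, 0.66 with NID1) as LAMB1 (0.658). In the WSD libraries LAMC1 had a rho of 0.524 with NID2 and 0.476 with NID1. HSPG2 lay nearer the collagens (0.695 with COL4A1) than the laminins (0.0362 with LAMB1). COL4A1 and COL4A2 are neighbours that overlap by 203 bases in the RefSeq annotation of a telomere-to-telomere macaque assembly, which is not the build the authors used. Reads from such an overlap cannot be assigned without strand.

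**Figure D4:**
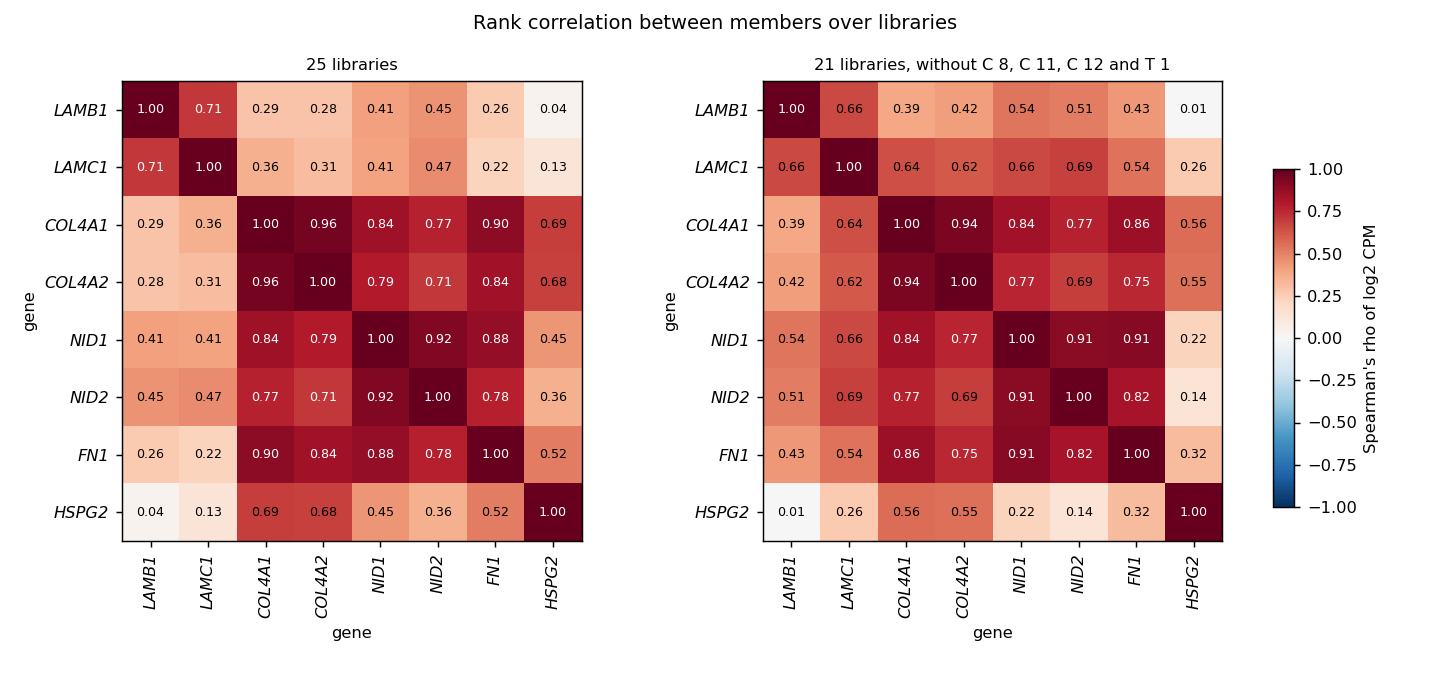
Spearman's rho of log2 CPM for each pair of genes, over all 25 libraries (left) and over 21 libraries without C 8, C 11, C 12 and T 1 (right). COL4A1, COL4A2, NID1, NID2 and FN1 form a block of high values in both. LAMB1 and LAMC1 stand at 0.71 and 0.66 with each other. On the right LAMC1 moves closer to the block, at 0.69 with NID2.

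With the members themselves set aside, the 3 genes most like each one were ranked by the same rho. For COL4A1 they were SPARC (rho 0.902), a collagen-binding matrix protein, PODXL (0.885) and PI4K2B (0.883). For COL4A2 they were the chromatin remodeller SMARCA2 (0.898), the metal transporter SLC39A8 (0.895) and ID1 (0.884). For NID1 they were the growth factor IGF1 (0.915), the apolipoprotein APOA1 (0.895) and GPRC5B (0.891). For NID2 they were the endoderm factors FOXA2 (0.896) and GATA4 (0.895) together with APOA1 (0.895). For FN1 they were SPARC (0.908), IGF1 (0.905) and MGST1 (0.903). The laminins had other neighbours. For LAMB1 they included the copper transporter SLC31A1 (0.798) and the sheddase ADAM10 (0.784). For LAMC1 they were the spectrin SPTAN1 (0.844), RCC2 (0.837) and JCAD (0.805). HSPG2 was most like RAPGEF1 (0.834), the endocytic receptor LRP1 (0.804) and PTMS (0.78).

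Primitive endoderm markers moved with the variable members, though not every regulator did. The summed CPM of 18 primitive endoderm markers, none of them a member, had a rho of 0.921 with NID2, 0.911 with NID1, 0.875 with FN1, 0.808 with COL4A1 and 0.738 with COL4A2. It was 0.468 with LAMB1, 0.398 with LAMC1 and 0.399 with HSPG2. Without C 8, C 11, C 12 and T 1 it was 0.561 with LAMB1, 0.618 with LAMC1 and 0.183 with HSPG2. The variable members were then at 0.887 (NID2), 0.877 (NID1), 0.904 (FN1), 0.779 (COL4A1) and 0.684 (COL4A2), so LAMC1 came near COL4A2. The sum ran from 875 to 23872 CPM in C (10 markers at 1 CPM or more in C 1, 8 in C 12, all 18 in C 11), from 1226 to 5699 in T, from 2160 to 6819 in WSD, and was 1712 and 3080 in TWSD. Such a sum leans on its most abundant genes, here APOA1, DAB2 and LRP2 (medians of 1202, 813 and 456 CPM). In C 11 APOA1 alone held 17177 of the 23872 CPM, and by itself it had a rho of 0.895 with each nidogen. GATA4, an endoderm transcription factor, had a rho of 0.895 with NID2 and 0.653 with COL4A1, and was at 0.117 CPM in C 1, 0.451 in TWSD 2 and 1.36 in C 12. GATA6, which marks the lineage early, had the opposite sign, at -0.448 with COL4A1 and -0.522 with FN1, and stood at 513 CPM in C 1. PDGFRA had a rho of 0.0738 with COL4A1. The epiblast markers went both ways with COL4A1: the median rho of the 10 was 0.0523, from -0.442 for POU5F1 to 0.706 for GDF3, with NANOG at 0.259. Without the 4 libraries that stand apart POU5F1 was at -0.697 and NANOG at 0.381. By the same median per gene, primitive endoderm was at 0.501, stromal at 0.5 and trophectoderm at 0.381. The summed CPM, which for trophectoderm leans on KRT18 (median 5195 CPM), had a rho with COL4A1 of -0.351 for epiblast and 0.485 for trophectoderm. With FN1 the sums were at -0.494 and 0.555. Without those libraries the sums were at -0.501 and 0.627 with COL4A1, and at -0.625 and 0.725 with FN1. The stromal marker sum had a rho of 0.824 with COL4A2 and 0.815 with FN1, and 0.744 and 0.725 without those libraries. The part of any of these cell types in the members' levels was not tested.

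**Figure D5:**
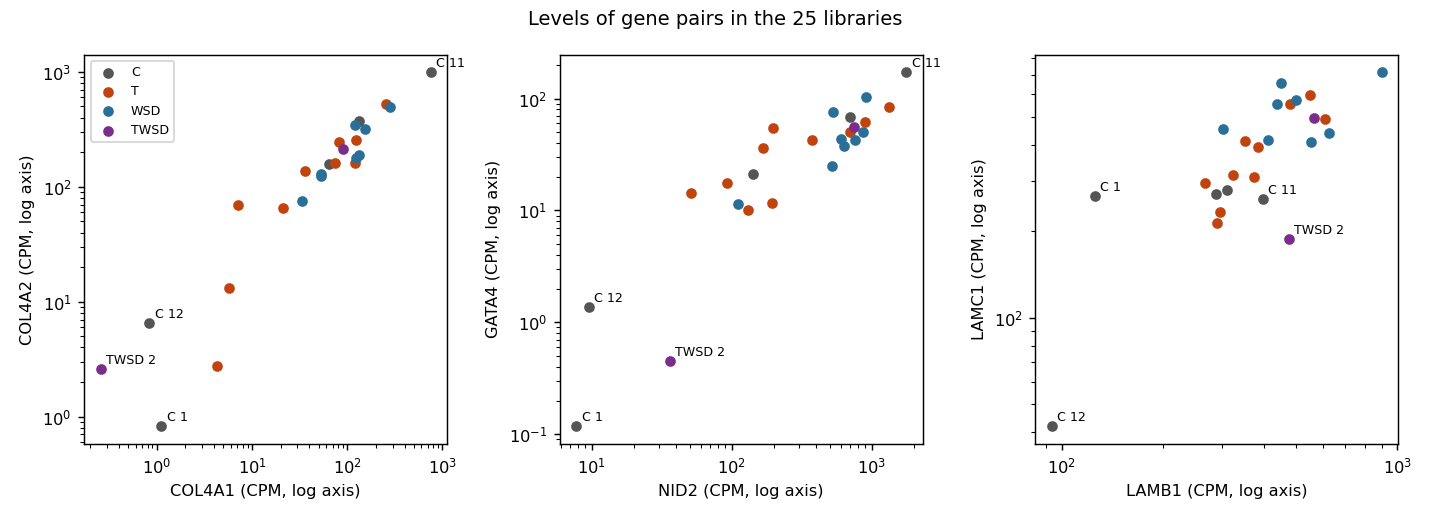
Levels in each of the 25 libraries, both axes log-scaled CPM, coloured by group: COL4A1 against COL4A2, NID2 against GATA4, and LAMB1 against LAMC1. C 1, C 12 and TWSD 2 lie at the low end and C 11 at the high end of the first pair of panels, while in the laminin panel most libraries fall within a few-fold of each other and C 12 lies alone at the bottom left.

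The marker lists themselves differed between groups, beside the laminin change, by edgeR's test in T against C and then in WSD against C. Of 64 markers tested, 8 were called in T (12.5%) and 13 in WSD (20.3%), where 4.11% and 4.07% of all genes were. Without C 8, C 11 and C 12, edgeR called 0 of 63 markers in either comparison. Those fits keep 2 controls and called 0 and 1 of 13472 genes (667 and 899 at an unadjusted p under 0.05). The loss of calls there therefore cannot show what the calls rested on. Without C 11 alone 2 and 7 of 64 were called, LRP2 in WSD among them (log2 change 2.02, adjusted p = 0.0364, edgeR). Of 16 primitive endoderm markers tested, 3 were lower in T, and 1 was higher and 2 lower in WSD. The higher one was LRP2, an endocytic receptor, at 1.82 ± 0.49 (log2, adjusted p = 0.035) and 2.13 without those 3 libraries (adjusted p = 0.588), and the lower ones included the apolipoprotein gene APOB and the transthyretin gene TTR in both. In WSD against C, without those libraries, APOB went from -7.78 to 0.06 and TTR from -9.68 to -1.09. Of 10 trophectoderm markers 1 was lower in each (TFAP2A), and of 9 syncytiotrophoblast markers 1 and 5 were lower, the fusion gene ERVFRD-1 in both. Of 6 stromal markers 1 and 2 were lower (COL1A1 in both), of 3 cumulus and granulosa markers 1 and 1 (VCAN), and of 4 blood markers 1 and 1 (CD14). Of 10 epiblast markers 0 and 0 were called (4 and 2 at an unadjusted p under 0.05, 2 and 1 by DESeq2), and of 6 endothelial markers 0 and 0 (3 and 4 unadjusted, 0 and 2 by DESeq2). Over all 13934 genes 2544 and 2551 passed unadjusted, and DESeq2 called 7.91% and 8.5%. No sperm marker passed the filter, and their sum reached at most 3.45 CPM. In the other 5 comparisons edgeR called 0 of the 64 markers (18 at an unadjusted p under 0.05 in TWSD against C and 2 to 9 in the rest). DESeq2 called 16 in TWSD against C and 0 to 2 in the rest. In TWSD against C, 3062 of the 13934 genes passed unadjusted and DESeq2 called 14.3% of all genes. In the rest, 237 to 1891 genes passed unadjusted and DESeq2 called 0.0431% to 4.18%. The limma voom fit called 0 in every comparison.

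The wider matrix pathway showed few calls by edgeR. The 5 lists of related genes held 83 tested genes, of which 1 was called in T against C (1.2%) and 1 in WSD against C (1.2%), both lower, against 4.11% and 4.07% of all genes. At an unadjusted p under 0.05 there were 16 and 15, where 2544 and 2551 of all 13934 genes were. DESeq2 called 6 and 7, where it called 7.91% and 8.5% of all genes. Without C 8, C 11 and C 12, 0 of 80 were called by edgeR in either. In the other 5 comparisons edgeR called 0 of the 83 (19 unadjusted in TWSD against C and 2 to 8 in the rest). Of all 13934 genes, 3062 passed unadjusted in TWSD against C and 237 to 1891 in the rest. DESeq2 called 18 in TWSD against C, where it called 14.3% of all genes. It called 0 to 5 in the rest, where it called 0.0431% to 4.18% of all genes. None of the 83 was called by limma voom in any comparison. Of 10 other laminin and collagen IV chains, 0 were called in either (1 and 0 unadjusted, 0 and 0 by DESeq2), with median log2 changes of 0.11 and 0.59. LAMA3 reached 51.5 CPM (WSD 7), LAMA4 reached 71.4 CPM (TWSD 2) and LAMA2 reached 60.1 CPM (C 11), while COL4A3 and COL4A4 did not pass the filter. Of 15 other basement membrane components 0 were called (2 and 1 unadjusted, 1 and 0 by DESeq2), with medians of -1.05 and -0.95. SPARC, in this list, ran from 1.10 to 5381 CPM, with C 11 highest.

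Of 21 genes for folding and secretion of collagen and laminin, 1 was lower in T against C and 0 were called in WSD against C (4 unadjusted, 2 by DESeq2), with medians of -0.33 and -0.25. It was P4HB, protein disulfide isomerase and a subunit of collagen prolyl 4-hydroxylase, at 999.5, 1838, 1528, 3393 and 6635 CPM in C 1, C 2, C 8, C 11 and C 12 and 1026 to 1944 CPM in T. Only C 11 and C 12 lay above all T libraries. Its log2 change was -1.03 ± 0.29 (adjusted p = 0.0418, edgeR), -0.46 without C 12 (adjusted p = 0.464) and 0.02 without C 8, C 11 and C 12 (adjusted p = 0.998). SERPINH1, the collagen chaperone HSP47, had a rho of 0.794 with NID2 and 0.465 with COL4A1.

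Of 19 integrins and other matrix receptors, 0 were called in T against C (5 unadjusted, 3 by DESeq2) and 1 was lower in WSD, with medians of -1.26 and -0.37. It was SDC1, the heparan sulfate carrier syndecan-1, at 3.64, 19.4, 205, 54.3 and 29.3 CPM in C 1, C 2, C 8, C 11 and C 12 and 6.76 to 23.3 CPM in WSD. SDC1 is also on the syncytiotrophoblast marker list, so the same call is counted among those markers. Its log2 change was -2.17 ± 0.62 (adjusted p = 0.0467, edgeR), -0.95 without C 8 (adjusted p = 0.404) and 0.30 without C 8, C 11 and C 12 (adjusted p = 0.979). The laminin receptor dystroglycan, DAG1, had a rho of 0.695 with LAMC1 and 0.202 with COL4A1, and ITGB1, the common beta subunit of laminin and collagen receptors, 0.612 with LAMB1. Of 18 matrix proteases and inhibitors, 0 were called (3 and 6 unadjusted, 1 and 2 by DESeq2), with medians of -0.84 and -1.29.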

How the data were processed

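RNA of blastocysts was measured in 25 libraries. The authors deposited 1 table of raw counts per Ensembl gene. Per the submitters' processing notes, FastQC 0.11.8, Trimmomatic 0.39, STAR 2.7.0 and the Mmul_10 build were used. The sources used here give neither the counting tool nor its use of strand. Of 35395 genes, 24173 had a symbol in the name table used. The 13934 genes that reached 1 CPM in 5 or more libraries were tested with edgeR 4.0.16 in R 4.3.3: TMM factors, robust quasi-likelihood test, group as the only term, all 25 libraries, Benjamini-Hochberg adjustment over all genes, threshold 0.05. The common biological coefficient of variation was 0.9. SE is the log2 change over the root of F. Levels are counts per 1000000 of TMM-scaled library size (CPM), and correlations use log2 CPM with a prior count of 2. All 8 matched members are named, list genes where they were called or bear on a marker check, and for each member the 3 most similar genes. The members, the 5 pathway lists and the 9 marker lists were chosen with earlier results of these data known. Alternatives were DESeq2 1.42.0, limma voom 3.58.1, other scaling, filters and libraries. Counts of called markers and pathway genes without C 11, or without C 8, C 11 and C 12, were added after seeing the data. The test was checked on simulated counts with known large changes in T against C and a smaller spread than the real one. That check does not show how often the test errs in these data. A gene among those most like a member is not reported here.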

Additional observations from a re-analysis of the deposited data

Results flagged for a closer look

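Of 24 groupings of 1 member in 1 group of 5 to 10 libraries, 3 had a single library far from the others on log2 CPM, where chance flags about 1 in 20. LAMC1 in C 12 was at 5.39, the other controls lying between 8.01 and 8.12. NID2 in WSD 8 was at 6.79, the other WSD libraries lying between 9.02 and 9.83. HSPG2 in WSD 6 was at 1.51, the other WSD libraries lying between 4.15 and 5.91.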

How the results depend on the processing

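In WSD against C, 2 members were called also with DESeq2 size factors in edgeR and under both other filters. DESeq2 called 3 members there, and 8.5% of all genes. The count was 0 with library totals, with limma voom, with only the groups compared, without C 8, C 11 and C 12, without those and T 1, and with the replicate block, and 0 to 2 with each library left out. With the replicate block the log2 changes were 0.90 for LAMB1 and 0.67 for LAMC1 (adjusted p = 0.9975). The replicate numbers did not pair the samples: 16 same-numbered pairs had correlations of -0.376 to 0.222, and 1 of 23 libraries correlated best with its own number. DESeq2 called 1 member in T against C and 1 in TWSD against C, FN1 in each, where it called 7.91% and 14.3% of all genes. With each library left out the count was 0 to 1 in T against C and 0 to 1 for the interaction. FN1 reversed in T against C to 1.99 without C 8, C 11 and C 12 and 0.84 without those and T 1, and in WSD against C to 2.00 and 1.96. LAMB1 and LAMC1 were above 0 in WSD against C under all 35 settings tried. So was HSPG2, which was called in none of them, while NID1 was above 0 in 34 and NID2 in 31. The settings share most libraries, so a constant sign is not separate evidence. Library totals moved the median of all genes in WSD against C from -0.12 to -0.01, and in T against C from -0.12 to 0.02. The fit to only the groups compared was not run for the interaction. With 2 TWSD libraries and wide spread, differences of several-fold in collagen IV, nidogens or FN1 could not be resolved. Except for the fits with fewer libraries, the cause of lost calls was not tested.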
